A study of Mus musculus with 10 samples.

Results

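The troponins and tropomyosins form the calcium switch of the thin filament in striated muscle, and 10 genes of the family were examined in hearts of E10.5 mouse embryos that lack the coxsackie–adenovirus receptor (CAR). They are Tnnt1, Tnnt2, Tnnt3, Tnni1, Tnni2, Tnni3, Tnnc1, Tnnc2, Tpm1 and Tpm2. A gene entered with the transcript cluster (a set of probes along its exons) that the platform annotation assigns to it alone. Each of the 10 genes had exactly 1 such cluster, and they were 10 of 19938 genes with a cluster of their own. RNA of 5 CAR KO samples and 5 WT samples was hybridised to Affymetrix Mouse Gene 1.0 ST arrays, and each sample pooled 3 hearts. The CAR KO embryos (CAR -/-, line B6.Cg-Cxadr tm1/Fgr) lack CAR in every tissue, the WT embryos are CAR +/+, both came from matings of CAR +/- mice, and no embryo was treated. Since 3 hearts share 1 array, the spread between samples is that between pools, and the labels do not say whether the pools came from separate litters.

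Calcium that enters the cytosol in each beat binds troponin C, which releases the hold of troponin I on actin. Troponin T ties this complex to tropomyosin, a coiled coil along the actin filament that covers the myosin binding sites at rest. Each subunit has isoforms made from separate genes. Tnnt2, Tnni3, Tnnc1 and Tpm1 are the isoforms of the mature heart, and Tnnc1 also serves slow skeletal fibres. Tnnt1 and Tnni1 are the slow skeletal and Tnnt3, Tnni2 and Tnnc2 the fast skeletal isoforms, and Tpm2 encodes β-tropomyosin of skeletal muscle. Tnni1 is also the principal troponin I gene of the fetal heart, where Tnni3 takes over around birth.

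The deposited values are log2 signals with a median per array between 7.65 and 7.73. The genotypes were compared with limma's moderated test over 28944 transcript clusters, with the Benjamini-Hochberg adjustment taken across the whole table. Cxadr, the gene of CAR, was lower in CAR KO hearts, at 6.46 ± 0.17 (SD, n = 5) in CAR KO and 8.38 ± 0.18 (SD, n = 5) in WT hearts, so the targeted gene fits the labels. Levels were set against a background of 6.51, the 95th percentile of 1210 clusters of odorant and vomeronasal receptors. Of all 19938 genes, 14661 lay above it. The cardiomyocyte markers were present, with 16 of 16 above background and their mean between 12.09 and 12.48 in CAR KO and between 12.19 and 12.47 in WT samples. CAR KO sample 5 and WT sample 5 stood apart from the others. Their cardiomyocyte means of 12.09 and 12.19 lay below the 12.40 to 12.48 of the other 8 samples, and their means of the liver and yolk sac list, 9.78 and 8.95, were the highest of their genotypes. In a bulk sample fewer cardiomyocytes and less RNA per cardiomyocyte cannot be told apart.

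None of the 10 genes differed between CAR KO and WT hearts at an adjusted p under 0.05 from limma, where 0.00345% of all transcript clusters did. That share is 1 cluster of 28944, the one of Cxadr itself. None had an unadjusted p under 0.05 either, against 2.4% of all clusters, nor did the methods' t-test call any. In none of them did the 5 CAR KO samples lie wholly above or below the 5 WT samples, a pattern that 0.359% of all clusters showed. By log2 fold change, 4 genes were above 0 and 6 below 0, with values between -0.16 and 0.25. The median over the 10 genes was -0.026, beside 0.011 over all clusters, and it was 0.046 without CAR KO sample 5. For the 4 cardiac isoforms the median was -0.040 and for the 6 skeletal isoforms 0.0061. A missed threshold is no measure of equal levels, and the 95% confidence interval of each difference was read as well. The whole interval stayed inside a 1.5-fold change up or down for 9 of the 10 genes (97.3% of all clusters), Tnnt3 being the exception, and within a 1.2-fold change for 4 genes, Tnnt2, Tnni1, Tnnc2 and Tpm1 (60.6% of all clusters). Tnnt2, Tnni1 and Tpm1 had the highest mean signals of the 10 genes and Tnnc2 the lowest. Differences near either end of the scale can be compressed, which narrows such intervals.

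**Figure D1:**
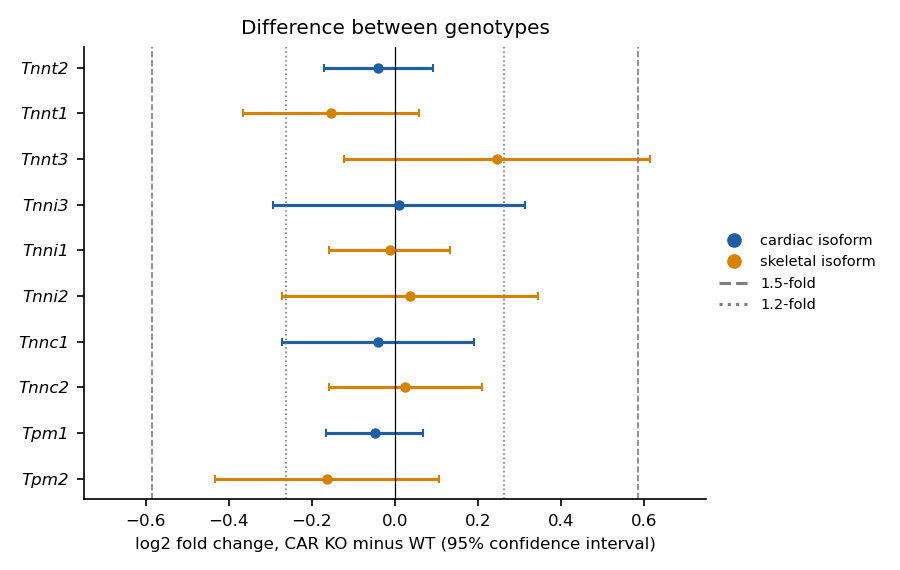
CAR KO minus WT difference in log2 signal for the 10 transcripts with 95% confidence intervals from limma, 5 samples per genotype; dashed lines mark a 1.5-fold and dotted lines a 1.2-fold change in either direction. All intervals include 0, and that of Tnnt3 alone passes the 1.5-fold line, with an upper end of 0.62.

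Among the troponin T genes, Tnnt1 and Tnnt3 had the smallest p-values of the family. Tnnt2, the cardiac gene, had log2 signals of 13.88, 13.86, 13.84, 13.92 and 13.67 in CAR KO samples 1 to 5, against 13.86, 13.90, 13.92, 13.92 and 13.77 in WT samples 1 to 5. The genotypes overlapped, and sample 5 was the lowest in both. The means were 13.83 ± 0.09 (SD, n = 5) in CAR KO and 13.87 ± 0.06 (SD, n = 5) in WT hearts, which gave a log2 fold change of -0.04 with a standard error of 0.06 (adjusted p = 0.99997 from limma). On the linear scale the 95% confidence interval ran from -11.2% to 6.63%. The highest value on any array was 14.49, and signals that close to the upper end of the scale can be compressed.

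Tnnt1, the slow skeletal troponin T, had the smallest p of the family. Its log2 signals were 10.96, 10.98, 10.79, 11.0002 and 10.52 in CAR KO samples 1 to 5, against 10.93, 11.04, 11.02, 11.16 and 10.86 in WT samples 1 to 5. The lowest CAR KO values came from samples 3 and 5, while the other 3 CAR KO samples lay among the WT samples. Its log2 fold change of -0.15 had a standard error of 0.10 (limma, unadjusted p = 0.139, adjusted p = 0.99997), with an interval from -22.4% to 4.09% on the linear scale. Without CAR KO sample 5 it was -0.07.

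Tnnt3, the fast skeletal troponin T, had the widest interval. Its log2 signals were 9.34, 10.19, 10.05, 9.46 and 9.33 in CAR KO samples 1 to 5, against 9.49, 9.50, 9.34, 9.58 and 9.22 in WT samples 1 to 5. CAR KO samples 2 and 3 stood above all WT samples, and the other 3 CAR KO samples lay within the WT range. The SD was accordingly 0.42 in CAR KO and 0.14 in WT hearts (n = 5 each). The log2 fold change was 0.25 (95% confidence interval -0.12 to 0.62, adjusted p = 0.99997 from limma), and without CAR KO sample 2 it was 0.12. Nothing in the labels sets CAR KO samples 2 and 3 apart. Their cardiomyocyte means were 12.48 and 12.40, the first being the highest of the 10 samples.

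**Figure D2:**
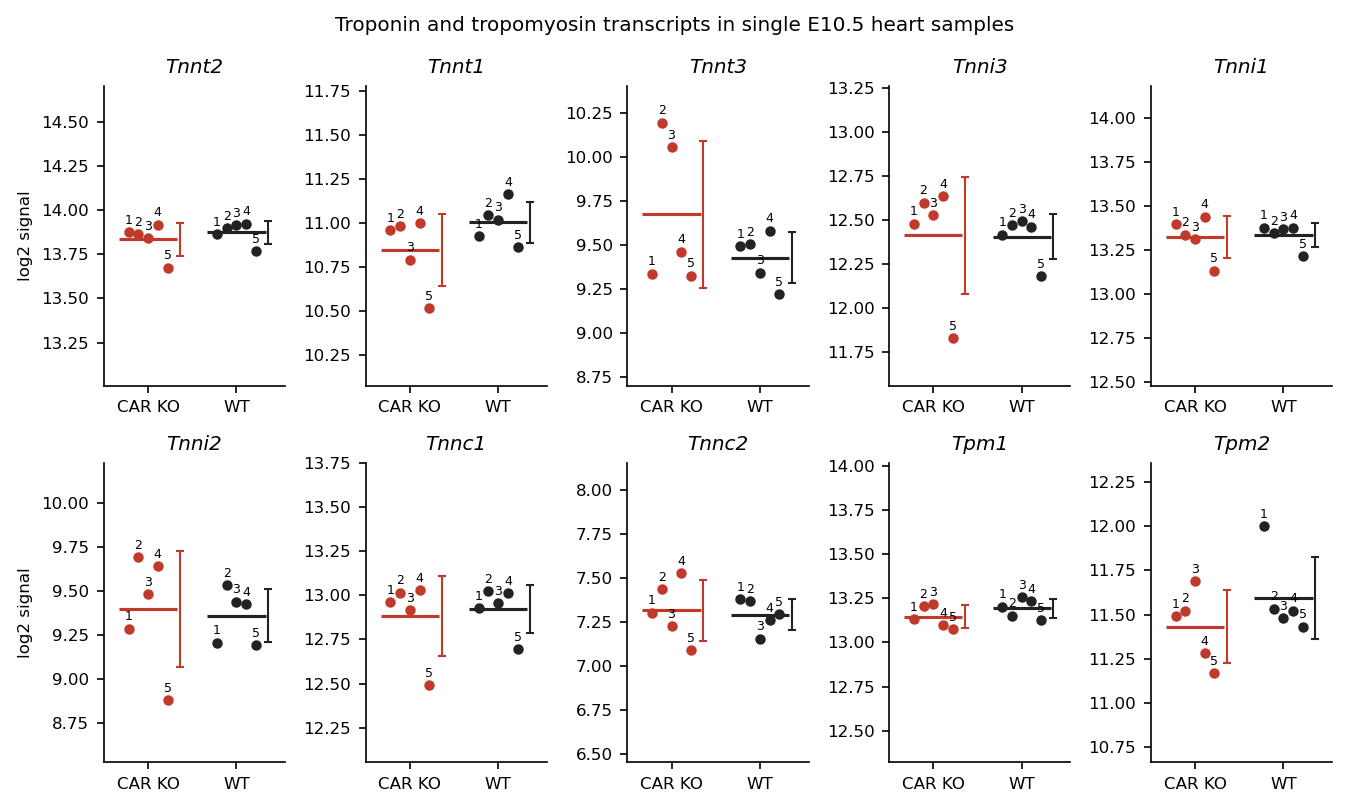
Log2 signal of each of the 10 transcripts in single samples of CAR KO (red, left) and WT (black, right) hearts, with the sample number at each point; horizontal lines show the mean of 5 samples and bars the SD, and each panel spans the same height on the log2 scale. The genotypes overlap in all 10 panels, sample 5 is often the lowest, and Tnnt3 is high in CAR KO samples 2 and 3.

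Troponin I holds the filament off at rest, and its isoforms change from Tnni1 to Tnni3 as the heart matures. Tnni3, the cardiac gene, had log2 signals of 12.48, 12.60, 12.53, 12.63 and 11.83 in CAR KO samples 1 to 5, against 12.42, 12.47, 12.49, 12.46 and 12.18 in WT samples 1 to 5. Sample 5 lay well below the other 4 samples in both genotypes. The means were 12.41 ± 0.33 (SD, n = 5) in CAR KO and 12.40 ± 0.13 (SD, n = 5) in WT hearts, a log2 fold change of 0.0092 with an interval from -18.4% to 24.2% on the linear scale. Without CAR KO sample 5, the remaining CAR KO samples were 0.155 above WT (unadjusted p = 0.0594 and, as the smallest of the 10 genes in that fit, adjusted p = 0.939 from limma). Of these 4 samples, numbers 2, 3 and 4 lay above all WT samples. With sample 5 of both genotypes left out, the difference was 0.099 (unadjusted p = 0.110, adjusted p = 0.999 from limma).

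Tnni1, the slow skeletal and fetal cardiac gene, was at 13.40, 13.34, 13.31, 13.44 and 13.13 in CAR KO samples 1 to 5, against 13.38, 13.34, 13.37, 13.38 and 13.21 in WT samples 1 to 5. The 2 ranges overlapped and sample 5 was again the lowest of each. Its log2 fold change was -0.01, with an interval from -10.4% to 9.70% on the linear scale. Tnni2, the fast skeletal gene, had values of 9.29, 9.69, 9.48, 9.64 and 8.88 in CAR KO samples 1 to 5, against 9.21, 9.53, 9.44, 9.42 and 9.19 in WT samples 1 to 5. CAR KO samples 2 and 4 were the highest and CAR KO sample 5 the lowest of all 10 samples, so that the log2 fold change of 0.04 had an interval from -0.27 to 0.34.

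Troponin C binds the calcium. Tnnc1, the cardiac and slow skeletal gene, had log2 signals of 12.96, 13.02, 12.92, 13.03 and 12.49 in CAR KO samples 1 to 5, against 12.93, 13.03, 12.96, 13.01 and 12.69 in WT samples 1 to 5. Sample 5 was below the other 4 samples in both genotypes, and those overlapped. The difference of -0.04 had a standard error of 0.11, with an interval from -17.2% to 14.2% on the linear scale. Tnnc2, the fast skeletal gene, was the member nearest to background, with 7.30, 7.43, 7.23, 7.53 and 7.09 in CAR KO samples 1 to 5 and 7.38, 7.37, 7.16, 7.26 and 7.30 in WT samples 1 to 5. Its mean of 7.30 lay above the 95th percentile of the receptor clusters and below their 99th percentile of 7.32, and differences of such dim transcripts are compressed on arrays. The log2 fold change was 0.02 (standard error 0.08).

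Tropomyosin blocks or frees the myosin sites on actin. Tpm1, which encodes α-tropomyosin, had log2 signals of 13.13, 13.21, 13.22, 13.10 and 13.07 in CAR KO samples 1 to 5, against 13.20, 13.15, 13.26, 13.23 and 13.13 in WT samples 1 to 5. It had the smallest SD of the 10 genes in both genotypes, 0.06 in CAR KO and 0.05 in WT hearts. The log2 fold change was -0.05 with an interval from -10.9% to 4.86% on the linear scale. For Tpm2 the values were 11.49, 11.52, 11.69, 11.28 and 11.17 in CAR KO samples 1 to 5, against 12.003, 11.53, 11.48, 11.52 and 11.43 in WT samples 1 to 5. WT sample 1 stood above all others, and without it the log2 fold change of -0.16 became -0.06. Tpm1 and Tpm2 also give rise to smooth muscle and cytoskeletal forms by splicing, and Tnnt2 to embryonic forms, which a signal per transcript cluster does not separate.

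To compare cardiac with skeletal isoforms, the log2 signal of the skeletal gene was subtracted from that of the cardiac gene within each sample. The size of such a difference depends on the probes of the 2 clusters, so only its change between genotypes is read. Of 6 pairs none differed in exact permutation tests (two-sided, unadjusted p between 0.111 and 0.905, where 5 samples against 5 can reach 0.00794). Tnni3 minus Tnni1 was -0.92, -0.74, -0.79, -0.80 and -1.30 in CAR KO samples 1 to 5, against -0.96, -0.87, -0.87, -0.91 and -1.03 in WT samples 1 to 5. Sample 5 was thus the lowest of each genotype also in the difference, Tnni3 being further below its mean there than Tnni1. The genotypes differed by 0.02 (exact permutation p = 0.905, 0.905 after Benjamini-Hochberg over the 6 pairs). This value turned on CAR KO sample 5, without which the difference was 0.12 (exact permutation p = 0.0714, 0.429 after Benjamini-Hochberg). Without sample 5 of both genotypes it was 0.09 (exact permutation p = 0.114), and with any other sample left out it lay between -0.02 and 0.04.

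Tnnt2 minus Tnnt1 came closest to a difference, with 2.98 ± 0.12 (SD, n = 5) in CAR KO and 2.87 ± 0.07 (SD, n = 5) in WT hearts. It was 2.92, 2.88, 3.05, 2.92 and 3.16 in CAR KO samples 1 to 5, against 2.94, 2.85, 2.90, 2.76 and 2.90 in WT samples 1 to 5. CAR KO samples 3 and 5 lay above all WT samples, and the other 3 lay among them (difference 0.11, exact permutation p = 0.111, 0.667 after Benjamini-Hochberg). After quantile normalization the exact permutation p was 0.0476 and without CAR KO sample 2 it was 0.0397, with 0.286 and 0.238 after Benjamini-Hochberg. Without CAR KO sample 5 the difference was 0.07 (exact permutation p = 0.214). Tnnt2 minus Tnnt3 differed by -0.29 (exact permutation p = 0.238), with low values of 3.67 and 3.79 in CAR KO samples 2 and 3. It was -0.16 without CAR KO sample 2 and -0.38 without CAR KO sample 1 (exact permutation p = 0.405 and 0.0714). Tnni3 minus Tnni2, Tnnc1 minus Tnnc2 and Tpm1 minus Tpm2 differed by -0.03, -0.07 and 0.12 (exact permutation p = 0.667, 0.492 and 0.429). With single samples left out, Tnni3 minus Tnni2 lay between -0.07 (without CAR KO sample 1) and 0.01 (without WT sample 1). Tnnc1 minus Tnnc2 lay between -0.12 (without WT sample 5) and -0.02 (without WT sample 3), and Tpm1 minus Tpm2 between 0.02 (without WT sample 1) and 0.16 (without CAR KO sample 3).

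**Figure D3:**
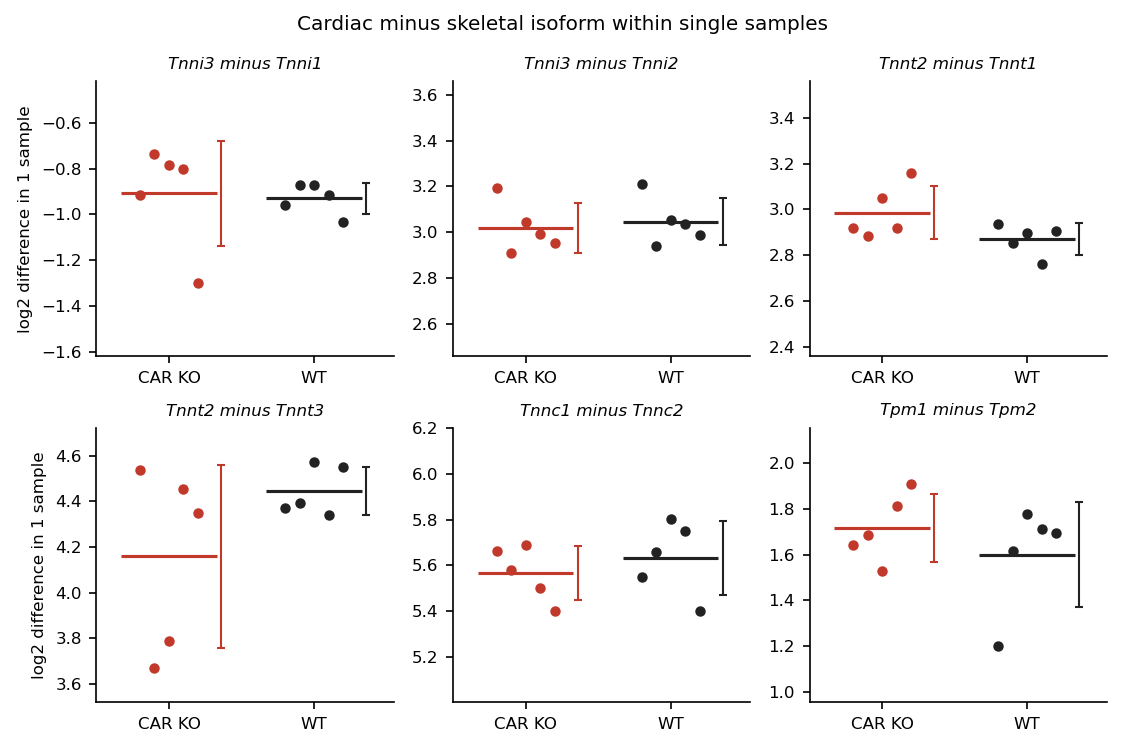
Log2 signal of a cardiac isoform minus that of a skeletal isoform in the same sample, for 6 pairs, in 5 CAR KO (red, left) and 5 WT (black, right) samples; lines show means and bars the SD. The genotypes overlap in all 6 panels, with the smallest exact permutation p of 0.111 for Tnnt2 minus Tnnt1.

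The clearest pattern in the family was between samples and not between genotypes. Within the CAR KO group, sample 5 had the lowest signal for 10 of the 10 genes, and within the WT group sample 5 for 9 of the 10, the exception being Tnnc2. Over all genes above background, CAR KO sample 5 was lowest in its group for 40.9% and WT sample 5 for 28.6%. The same 2 samples were the lowest for 15 and 14 of the 16 cardiomyocyte markers, none of which is a troponin or tropomyosin. The median deviation of the 10 genes from their genotype mean was -0.30 in CAR KO sample 5 and -0.15 in WT sample 5, and between 0.01 and 0.13 in the other 8 samples. Tnni3 fell by 0.58 below its genotype mean in CAR KO sample 5, while Tpm1 fell by 0.07. Relations to the cardiomyocyte mean were computed over the 8 samples other than number 5, and none passed. Pearson's r lay between -0.09 for Tpm2 and 0.49 for Tnnt1 (for Tnnt1, Spearman's rho was 0.333 with a permutation p of 0.425, and r without the 2 farthest samples 0.319), and the smallest permutation p of Pearson's r was 0.227 (0.815 after Benjamini-Hochberg over the 10 genes). Over all 10 samples r lay between 0.442 for Tnnt3 and 0.965 for Tnnc1. CAR KO sample 5 and WT sample 5 form a group of their own for this mean. The higher values rest on them, and no p is given for these.

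**Figure D4:**
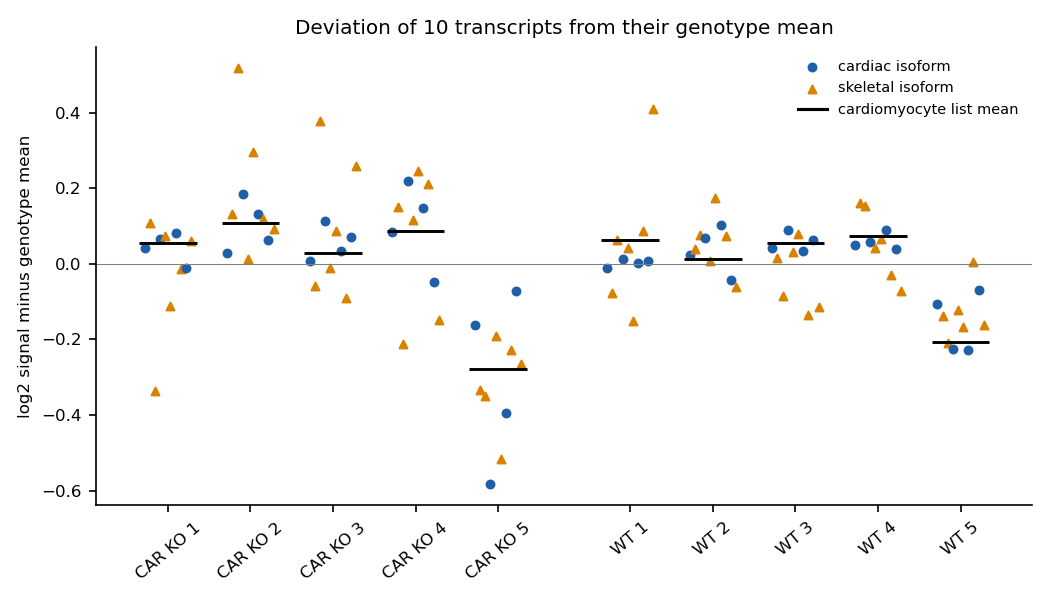
Log2 signal of the 10 transcripts minus the mean of their genotype, in 5 CAR KO and 5 WT samples; blue circles are cardiac and orange triangles skeletal isoforms, and black lines show the mean of 16 cardiomyocyte markers treated in the same way. Most points of CAR KO sample 5 and WT sample 5 lie below 0 together with the cardiomyocyte mean.

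Transcripts of liver and yolk sac, tissues next to the embryonic heart, were set beside the members because their amount varied between pools. Their mean over 16 genes was 8.40, 7.61, 6.93, 7.07 and 9.78 in CAR KO samples 1 to 5, against 7.36, 8.89, 7.56, 7.51 and 8.95 in WT samples 1 to 5. High values thus came from samples of both genotypes. Tnni3 ran opposite to this mean, with a Pearson's r of -0.813 over the 10 samples (permutation p = 0.0041, 0.0164 after Benjamini-Hochberg over 20 relations) while Spearman's rho was -0.612 (0.0691 by permutation). Without the 2 samples farthest from the median of the liver mean, which were CAR KO sample 5 and WT sample 5, r was -0.361, so the relation rests on those samples. Tnni3 was not alone in this. Tnni1, Tnnc1 and Tnnt2 had r of -0.744, -0.715 and -0.709 (permutation p = 0.0338, 0.0435 and 0.0434 after Benjamini-Hochberg), with rho of -0.515, -0.297 and -0.442 (permutation p = 0.244, 0.471 and 0.255 after Benjamini-Hochberg). Without the same 2 samples their r was -0.0714, 0.344 and 0.130, so these relations rest on them too. The other 6 genes had r between -0.669 and -0.427, none with an adjusted p under 0.05. The 20 relations of the adjustment are those of the 10 genes to the liver mean and to the cardiomyocyte mean, over all 10 samples. The adjusted values depend on this pooling, since the cardiomyocyte relations in it rest on the same 2 samples. No gene is therefore taken as passing. Unadjusted, the permutation p of r was 0.0135, 0.0218 and 0.0195 for Tnni1, Tnnc1 and Tnnt2. WT sample 2 had nearly as much liver signal as WT sample 5 and a Tnni3 signal of 12.47, the second highest of its genotype. With the liver mean as a covariate none of the 10 genes had an unadjusted p under 0.05 from limma, beside 2.74% of all clusters. Without the 3 samples richest in liver transcripts (WT samples 2 and 5 and CAR KO sample 5) none did either, beside 4.19% of all clusters.

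**Figure D5:**
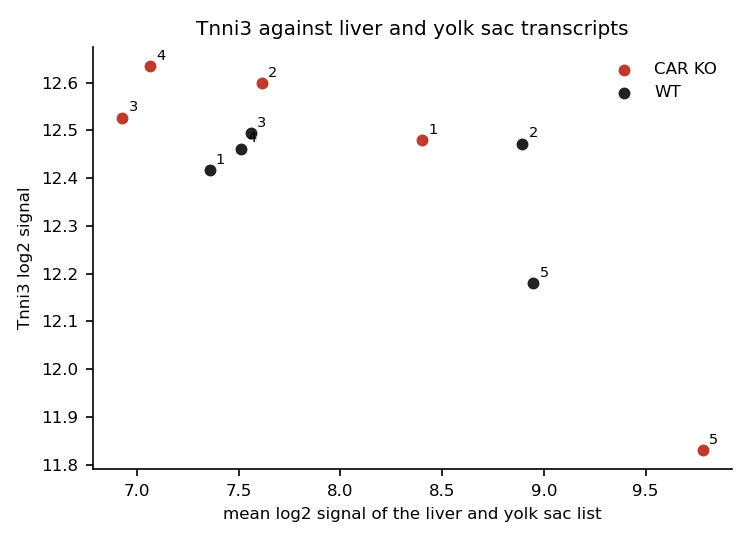
Log2 signal of Tnni3 against the mean log2 signal of 16 liver and yolk sac transcripts in single CAR KO (red) and WT (black) samples, with sample numbers. CAR KO sample 5 and WT sample 5 combine high liver means (9.78 and 8.95) with the lowest Tnni3 signals (11.83 and 12.18), and WT sample 2 does not.

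Fast skeletal isoforms were above background in these hearts, so markers of skeletal muscle were examined. Tnnt3 and Tnni2 exceeded the background level by 3.04 and 2.87 on the log2 scale, and Tnnc2 by 0.79. Of 23 skeletal muscle markers 15 lay above background and 10 above the 99th percentile of the receptor clusters. Over the whole array 14661 of 19938 genes lay above background, so the share of the markers was no higher than that of all genes. Ttn (titin) and Ckm (muscle creatine kinase), both among the 15, are also genes of cardiac muscle. Of the factors that define the lineage, some were above background. Myod1 averaged 6.97 ± 0.17 (SD, n = 5) in CAR KO and 7.23 ± 0.47 (SD, n = 5) in WT hearts, and Myog averaged 6.78 ± 0.26 (SD, n = 5) in CAR KO and 6.97 ± 0.48 (SD, n = 5) in WT hearts. The highest CAR KO samples were at 7.14 for Myod1 and 7.07 for Myog, and the highest WT samples at 8.01 for Myod1 and 7.82 for Myog. Pax7, a factor of muscle progenitors, averaged 7.46 and Mymk, which drives myoblast fusion, 7.47 over the 10 samples. The means of Myf5 and Myf6, 5.95 and 6.45, were below the background level of 6.51. Single samples passed it. For Myf5 the highest WT sample was at 6.66 and the highest CAR KO sample at 5.94. For Myf6 these were at 6.53 and 6.74. The means of the embryonic myosin Myh3 and the adult fast myosins Myh1 and Myh4 were below background as well, at 6.23, 6.43 and 5.57. The highest WT sample was nevertheless at 7.13 for Myh3, where the highest CAR KO sample was at 6.22. For Myh1 the highest samples were at 6.57 in WT and 6.53 in CAR KO hearts. The other myosin heavy chains of the list, Myh2 and Myh8, were above background, with means of 6.971 and 7.498 over the 10 samples. Myh8 was also above the 99th percentile of the receptor clusters. The brightest markers after Ttn were Actn3, Myl1, Ckm, Mylpf and Chrng, at 8.85, 8.65, 8.50, 8.01 and 7.86. Chrna1, Chrnd and Musk of the same list had means below background, at 6.44, 6.41 and 5.98. Mylpf, the fast skeletal myosin light chain, was at 8.02 ± 0.25 (SD, n = 5) in CAR KO and 8.01 ± 0.07 (SD, n = 5) in WT hearts. The mean of the skeletal list, Ttn left out, ranged from 6.82 to 7.18 in CAR KO and from 6.97 to 7.28 in WT samples. No marker of the list had an unadjusted p under 0.05 from limma, beside 2.4% of all clusters. The part of skeletal muscle in the Tnnt3 and Tnni2 signals was not tested.

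The 6 troponin I and troponin T genes lie in 3 pairs, each a troponin I close to a troponin T gene (GRCm38.p6). No annotated gene lies between Tnnt1 and Tnni3, and 1 lies between the genes of each of the other pairs. Tnni1 (chr1:135783033-135810989) and Tnnt2 (chr1:135836315-135852268) are 25325 bases apart, Tnnt1 (chr7:4504569-4515975) and Tnni3 (chr7:4518305-4522718) 2329 bases, and Tnni2 (chr7:142441816-142444410) and Tnnt3 (chr7:142498771-142516213) 54360 bases. Tnnc1 lies at chr14:31208312-31211729, Tnnc2 at chr2:164777161-164779734, Tpm1 at chr9:67022590-67049672 and Tpm2 at chr4:43513726-43523583. As a description, deviations from the genotype mean correlated at 0.96 for Tnni1 and Tnnt2, 0.89 for Tnnt1 and Tnni3 and 0.61 for Tnni2 and Tnnt3 over the 10 samples. Over the 8 samples other than number 5 these values were 0.71, 0.44 and 0.41. Genes on different chromosomes reached similar values, such as 0.97 for Tnni3 and Tnnc1 over 10 samples and 0.66 over 8. The most positive relation over the 8 samples was that of Tnni3 and Tnni2, with 0.89, beside 0.91 over 10 samples. Negative relations also appeared over the 8 samples, the largest being -0.91 for Tnnt2 and Tpm2, -0.80 for Tnnt3 and Tnni1 and -0.76 for Tnnt1 and Tpm2, where the values over 10 samples were 0.29, 0.22 and 0.15.

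The upstream sequences of the linked genes Tnnt2 and Tnni1 and of the adjacent genes Tnnt1 and Tnni3 are shown because each pair joins a cardiac with a skeletal isoform gene. Deviations of these pairs correlated at 0.96 and 0.89 over the 10 samples, and at 0.71 and 0.44 without sample 5 of either genotype. Genes on different chromosomes reached similar values. The sequences are the 250 bases before the start site, from RefSeq (GRCm38.p6), written 5′ to 3′ on the gene's strand. Where the table of windows lists several start sites of a gene, the one farthest upstream was taken. The annotated spans of Tnni1, Tnni3 and Tnnt2 begin further upstream than these start sites, so the Tnni1 window lies inside its gene and those of Tnni3 and Tnnt2 partly do. Capitals mark matches to 4 short motifs on either strand, namely the TATA box as TATAAA, the M-CAT element of muscle genes as CATTCC, an E-box as CAGCTG and a GATA site as GATAAG. None of the 4 motifs overlaps another by its letters in these windows.
Tnnt2 (chr1:135836084-135836333, + strand): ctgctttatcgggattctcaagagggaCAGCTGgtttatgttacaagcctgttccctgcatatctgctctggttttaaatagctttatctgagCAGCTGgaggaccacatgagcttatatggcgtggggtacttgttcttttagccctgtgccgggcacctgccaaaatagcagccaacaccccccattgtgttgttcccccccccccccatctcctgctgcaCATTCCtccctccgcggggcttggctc
Tnni1 (chr1:135799171-135799420, + strand): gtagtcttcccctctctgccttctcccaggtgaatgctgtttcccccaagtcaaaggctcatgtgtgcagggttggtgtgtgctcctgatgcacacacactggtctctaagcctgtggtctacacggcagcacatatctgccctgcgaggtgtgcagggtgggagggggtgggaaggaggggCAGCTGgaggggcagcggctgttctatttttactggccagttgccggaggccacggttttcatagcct
Tnnt1 (chr7:4515976-4516225, - strand): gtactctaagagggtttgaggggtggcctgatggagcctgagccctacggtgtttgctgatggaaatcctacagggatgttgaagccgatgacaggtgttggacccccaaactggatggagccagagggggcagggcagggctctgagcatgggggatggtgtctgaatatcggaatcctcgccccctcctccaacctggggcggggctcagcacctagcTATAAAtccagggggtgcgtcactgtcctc
Tnni3 (chr7:4522529-4522778, - strand): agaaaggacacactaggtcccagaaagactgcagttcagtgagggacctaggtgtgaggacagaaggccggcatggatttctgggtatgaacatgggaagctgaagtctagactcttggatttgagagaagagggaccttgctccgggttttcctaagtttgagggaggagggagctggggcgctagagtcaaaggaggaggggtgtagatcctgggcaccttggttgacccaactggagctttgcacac
The Tnnt2 window holds CAGCTG from -223 to -218 and from -157 to -152 and CATTCC from -27 to -22, counted from the start site. The Tnni1 window holds CAGCTG from -68 to -63, the Tnnt1 window TATAAA from -30 to -25, and the Tnni3 window none of the 4 motifs. Upstream windows were at hand for 8 of the 10 genes. Among these, 3 held CAGCTG (13.0% of 32851 windows of the same length), 3 held CATTCC (12.6%), 1 held TATAAA (12.4%) and none GATAAG (6.55%). The longer consensus sites of MEF2 and of SRF (CArG box) were in none of the 8 windows (2.92% and 1.47% of all windows). These matches describe letters in a window and not sites of binding.

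The partners of troponin and tropomyosin on the thin filament were examined next. Of 25 genes, 22 were above background, beside 14661 of all 19938 genes. None had an adjusted or an unadjusted p under 0.05 from limma, where 0.00345% and 2.4% of all clusters did. The median log2 fold change was -0.014. The other tropomyosin genes, Tpm3 and Tpm4, differed by 0.01 and -0.04. The 3 brightest, Actc1 (cardiac α-actin), Actn2 (α-actinin of the Z-disc) and Capzb (the barbed-end capping protein), differed by -0.03, -0.06 and -0.04. The smallest p-values were those of Lmod1, a leiomodin that nucleates actin, with 0.21 (95% confidence interval -0.01 to 0.42), of Nrap, a scaffold of myofibril assembly, with -0.33 (-0.75 to 0.09), and of Tmod3, a pointed-end cap, with -0.10 (-0.22 to 0.03). Each had an adjusted p of 0.99997 from limma.

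Of 27 listed regulators of transcription and splicing, all were above background, beside 14661 of all 19938 genes, and limma called none after adjustment. Hand1, a factor of the left ventricle, was the 1 gene with an unadjusted p under 0.05 (2.4% of all clusters had one), with 10.98 ± 0.11 (SD, n = 5) in CAR KO and 10.82 ± 0.10 (SD, n = 5) in WT hearts (log2 fold change 0.17, unadjusted p = 0.0350, adjusted p = 0.99997 from limma). Celf2, a splicing factor, and Srf, the serum response factor, followed with -0.12 and -0.10. The brightest, Tbx20, Ptbp1 and Prmt5, differed by 0.02, -0.01 and 0.02. The median log2 fold change of this list was -0.0024.

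For each member the 3 genes with the most similar pattern were sought among 14651 other genes above background, by Pearson's r of the deviations from the genotype mean over 10 samples. The points share their samples and arrays, the genes were picked for a high r, and the values are a description. For Tnnt2 they were Gars, Dpysl3 and Sh3bgr, with r between 0.988 and 0.996, and for Tnnt1 Dennd5a, Idh2 and Akap6, with r between 0.976 and 0.986. For Tnni3 they were Cryab (αB-crystallin), Pgam2 (muscle phosphoglycerate mutase) and Chchd10, with r between 0.989 and 0.991, which dropped to between 0.728 and 0.807 without sample 5 of either genotype. Slc47a1, Tm6sf1 and Gnb5 were nearest to Tnnc1 and Agtr1a, Nos3 and Apobec2 to Tnni1. The fast skeletal genes had Cox4i1, Ypel5 and Sertad2 (Tnni2), Slc7a7, Lims2 and Fgf12 (Tnnt3) and Ppfia3, Cks1brt and Mir497 (Tnnc2). Of the genes nearest to Tnnt3, Lims2 and Fgf12 had log2 fold changes of 0.34 and 0.29 and Slc7a7 of 0.03. For tropomyosins the highest values were lower, with r of 0.938 for Gucy1b1, 0.936 for Rbfox2 and 0.932 for Smarcd3 beside Tpm1, and 0.931 for Dmpk, 0.920 for Adamts6 and 0.908 for Scarna8 beside Tpm2.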

How the data were processed

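The authors dissected hearts of E10.5 embryos, pooled 3 hearts per sample and hybridised RNA of 5 CAR KO and 5 WT samples to Affymetrix Mouse Gene 1.0 ST arrays. What the authors deposited is a table of 35556 rows in log2 units for the 10 samples. MAS5 stands in the submitters' processing notes. How the scanner images became this table is not given in the sources. The values were used as deposited, and correlations between samples ranged from 0.987 to 0.998.

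Control rows (6612) were left out by identifier, which left 28944 transcript clusters. Gene symbols come from the platform annotation, and 1621 clusters that name several genes and 5534 unnamed here were tested but named no gene. Where a gene had several clusters the brightest was used. The genotypes were compared by lmFit and eBayes without covariates (limma 3.58.1, R 4.3.3), and calls required a Benjamini-Hochberg adjusted p under 0.05 across all clusters. Confidence intervals are unadjusted. Isoform differences were compared with exact permutation tests, and correlations with 100000 permutations. The procedure was tested on simulated data. The alternatives were array weights, the methods' t-test, centring of arrays on their medians, quantile normalization, testing only clusters brighter than the 40th percentile, a robust prior with an intensity trend, sample number as a block, list means as covariates, and leaving out samples. Sample numbers are not said to pair the samples.

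The members and lists were chosen with earlier results of these data known. Named beside the members are, for partners and for regulators, the 3 genes of highest mean signal and the 3 of lowest p, the 3 genes most like each member, and Cxadr; single markers of skeletal muscle were chosen after their values were seen. Means of the smooth muscle list lay between 10.78 and 11.09 in CAR KO and 10.87 and 11.11 in WT samples, and those of the blood list between 11.30 and 11.79 in CAR KO and 11.27 and 11.90 in WT samples. Figures were drawn with matplotlib 3.10.9. The number of arrays limits the precision.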

Additional observations from a re-analysis of the deposited data

Results flagged for a closer look

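Among 42 groups of 5 samples examined (members, isoform differences and marker means in each genotype), 9 held a sample that stood off from the rest. By chance about 1 in 20 groups would, or 2.1 of them. The groups share samples and genes, so the 9 are not separate events. The gap to the nearest sample is given as a share of the range. CAR KO sample 5 stood lowest in its group for Tnni3 (11.83, gap 0.807), Tnnc1 (12.49, gap 0.791) and the mean of the cardiomyocyte list (12.09, gap 0.792). WT sample 5 was the lowest for Tnni3 (12.18, gap 0.754), Tnni1 (13.21, gap 0.798) and the mean of the cardiomyocyte list (12.19, gap 0.785). WT sample 1 was the highest for Tpm2 (12.003, gap 0.822) and thereby the lowest for Tpm1 minus Tpm2 (1.2001, gap 0.724). WT sample 3 was the lowest for the mean of the blood list (11.27, gap 0.759), which includes embryonic globins.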

How the results depend on the processing

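No member was called under any of the 21 alternatives. The median over the 10 genes ran from -0.056 to 0.046, the upper end without CAR KO sample 5. With sample numbers entered as a replicate block, 1 member, Tnnt1, had an unadjusted p under 0.05 (0.0451, adjusted p = 0.969 from limma), against 0 without it, while over all clusters 1304 in place of 696 did; the deviations of same-numbered samples correlated at 0.07 to 0.56, 4 of the 5 pairs were over 0.1, and 7 of 10 samples correlated best with their own number. That is a hint of a shared structure in the data, but neither the labels nor all 5 pairs give it, so the numbers were not taken as pairs. With the block, Tnni3 minus Tnni2 was lower in CAR KO in 5 of 5 pairs (exact sign-flip permutation p = 0.0625, the smallest that 5 pairs can give, 0.375 after Benjamini-Hochberg). Within a 1.2-fold limit lay 4 genes in place of 9 within 1.5-fold. Of the isoform differences 1 (Tnnt2 minus Tnnt1) had an unadjusted exact permutation p under 0.05 after quantile normalization, and 0 to 1 with samples left out in turn. The sign of the log2 fold change turned for some members, and since no member was called in any setting, all of these were uncalled. Tnni1 was at 0.0073 with array weights, 0.0019 with the cardiomyocyte mean as a covariate and 0.0051 without sample 5 of both genotypes; Tnni3 at -0.010 with the liver mean as a covariate; Tnnc1 at 0.015 without the 3 samples richest in liver transcripts and 0.00023 without sample 5 of both genotypes. With samples left out, log2 fold changes ran from -0.066 to 0.00045 (Tnnt2), -0.043 to 0.035 (Tnni1), -0.047 to 0.155 (Tnni3), -0.038 to 0.165 (Tnni2), -0.098 to 0.057 (Tnnc1) and -0.029 to 0.081 (Tnnc2). Above the 99th percentile of the receptor clusters lay 9 members, Tnnc2 being below it. No member has a further cluster of its own, so that alternative gave no value. The cause of these changes was not tested.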
